A study of Mus musculus with 3 samples.

Results

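Monocytes that remained among sorted bone marrow stromal cells were described here in 3 single-cell RNA libraries, 1 from each of 3 mouse genotypes. A barcode, the tag of 1 droplet, was taken as a member when it carried at least 1 UMI (unique molecular identifier, 1 counted RNA molecule) of at least 2 of the 5 genes Csf1r, Ly6c2, Ms4a6c, Ccr2 and F13a1. It also needed at least 10 Lyz2 UMIs per 10000 UMIs, under 100 per 10000 summed over 8 neutrophil granule genes, and under 20 per 10000 of the stromal chemokine Cxcl12. The rule found 171 members among 8336 barcodes that passed the quality limits (a minimum of 500 genes and of 1000 UMIs, and no more than 10% of the UMIs mitochondrial), which is 2.05% of them. WT had 34 members, R76W 42 and D130 95. All values behind this rule are RNA levels of the same cells, and members chosen by those levels are only described by them.

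All mice were C57BL/6 and 6 to 8 weeks old, and all libraries were labelled as bone marrow mesenchymal stromal cells. The WT mice were the wild type controls. The series text describes R76W as a model in which gap junctions of connexin 43 (Cx43, encoded by Gja1) are inhibited in osteocytes, the cells embedded in bone. The library labelled D130 was read as the Δ130–136 model of that text, in which residues 130 to 136 of Cx43 are deleted and both gap junctions and hemichannels of osteocytes are blocked. Both lines are known from earlier work to carry the mutant connexin under the osteocyte-directed Dmp1 promoter, which the labels do not state, and the endogenous Gja1 gene remains. Marrow was flushed, bone fragments were digested with collagenase, red cells were lysed, and cells were stained with antibodies to PDGFRα, CD51, CD45, CD31 and Ter119 and sorted. How the stains were gated and how many mice each library pooled are not given in the sources used here. Each genotype had 1 library, so genotype, mouse and library cannot be told apart. No difference between libraries was tested, and every 95% interval below (exact Poisson for a level, exact Clopper-Pearson for a share, exact conditional binomial for a ratio) covers counting error only.

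Monocytes are circulating phagocytes that arise in the marrow from granulocyte and monocyte progenitors under the control of the receptor for colony stimulating factor 1. Classical monocytes carry Ly6C and the chemokine receptor CCR2, through which they leave the marrow, whereas patrolling monocytes carry CX3CR1 and depend on the nuclear receptor Nr4a1. When they sense microbial products, damage or mechanical handling, monocytes transcribe immediate early factors and NF-kB targets such as chemokines, TNF and the NF-kB inhibitors that switch the response off again.

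The members carried RNA of classical monocyte genes in all 3 libraries, part of it by the rule itself, while markers of resident macrophages were nearly absent. Levels below are in CPM, the UMIs of a gene summed over the members of a library and scaled to 1000000 of them. The WT total was 627096 UMIs, that of R76W 952864 and that of D130 2526524, and the median member held 15576, 19376 and 21517 UMIs in that order. Lyz2, lysozyme of phagocytes, stood at 14864 CPM in WT, 12908 in R76W and 12637 in D130. Ly6c2, part of the Ly6C antigen, stood at 1894, 2370 and 2264 CPM. F13a1, the coagulation factor XIII A chain, stood at 1288, 1394 and 1514 CPM, and the membrane protein gene Ms4a6c at 1113, 1120 and 1141 CPM. Ccr2 stood at 660, 538 and 680 CPM, and Csf1r, the receptor for colony stimulating factor 1, was low at 110, 120 and 126 CPM. All of these genes are part of the rule, so their levels describe how the members were chosen.

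Ctss, the lysosomal protease cathepsin S, was listed as a marker of these cells but was not used to choose them. It had a UMI in 34 of 34, 41 of 42 and 94 of 95 members, at 509 (454–568) CPM in WT, 457 (415–502) in R76W and 617 (587–649) in D130. Among erythroid barcodes, which should lack it and were deeper (median 25234 to 35278 UMIs), at most 0.813% had a UMI, and among the shallower neutrophil barcodes (median 5240 to 8047 UMIs) at most 10.96%. The D130 level was 1.21 times that of WT (1.07–1.37), and the level in stromal barcodes was at most 12.4 CPM. Ptprc, which encodes the sort antigen CD45, stood at 329, 330 and 384 CPM in the members and had a UMI in 34, 42 and 94 of them. Pdgfra, which encodes the stromal sort antigen PDGFRα, had no UMI in WT or R76W and 2 in D130. The members thus carried RNA of a pan-leukocyte antigen and hardly any of the stromal one.

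The name macrophage was not borne out by the markers. Of 24 genes listed for tissue macrophages, 12 had no UMI in WT, 12 had none in R76W and 1 had none in D130, while only 8 reached the 30 UMIs in 10 cells that counted as measured. C1qa, a complement gene of resident macrophages, had 1, 0 and 9 UMIs, and 8 of the 9 in D130 lay in 1 cell. Adgre1, which encodes F4/80, was present at 46.2, 35.7 and 52.3 CPM. The summed list stood at 606, 282 and 505 CPM, against 6352 to 8475 CPM in stromal barcodes, which express several of its genes. Barcodes with UMIs of at least 2 of 9 macrophage genes numbered 2, 1 and 16, but after each cell was thinned to 3000 UMIs they numbered 0 of 33, 0 of 40 and 1 of 93. At least 3 of 9 patrolling monocyte genes were found in 11, 18 and 44 members at full depth and in 1, 0 and 3 after thinning. The members are called monocytes below for short. That name also covers cycling members with RNA of progenitor genes, described below, which held most of the member UMIs.

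The members lay well inside most limits of the rule. All 5 monocyte genes had a UMI in 26, 33 and 86 members. The median member held 159, 166 and 168 Lyz2 UMIs per 10000, the lowest member 47.2, 10.9 and 10.8, and the highest barcode kept out by Lyz2 alone 3.74, 0 and 6.21 (11, 3 and 12 barcodes). On the neutrophil side the limit ran through a denser range. The highest member had 96.5, 97.5 and 87.8 neutrophil gene UMIs per 10000, and the lowest of the 5, 7 and 18 barcodes beyond the limit had 116, 1987 and 110. Cxcl12 was at most 0.736, 1.01 and 12.6 per 10000 in members, and the 2, 2 and 6 barcodes kept out by it began at 49.2, 45.0 and 39.7.

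A few members carried RNA of other cell types. In WT, 665 of the 786 UMIs of the hemoglobin gene Hbb-bs lay in 1 cell. In D130, 578 of the 662 UMIs of the collagen gene Col1a1 lay in 1 cell, as did 127 of the 180 UMIs of the platelet chemokine gene Ppbp. Erythroid genes summed to 3039, 111 and 1868 CPM and mesenchymal stromal genes to 848, 787 and 1510 CPM. The doublet caller Scrublet marked 0, 0 and 4 members. Libraries shared 4 to 8 barcodes, and 0, 2 and 1 members bore a barcode that was shared between WT and R76W, WT and D130, and R76W and D130. Lyz2 had a UMI in 1.45% of WT, 3.06% of R76W and 22.1% of D130 erythroid barcodes. Whether this came from free RNA or from mixed barcodes was not tested.

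Monocytes made up a larger share of the barcodes in both transgenic libraries than in WT. They were 0.778% of kept barcodes in WT (0.539–1.09%), 2.35% in R76W (1.70–3.16%) and 4.37% in D130 (3.55–5.31%). Counting intervals of the 3 shares did not overlap. The WT library also held the most erythroid barcodes, 2353 against 360 and 615. Without erythroid-marked barcodes the shares were 1.73% (1.19–2.44%), 2.96% (2.14–3.98%) and 5.89% (4.76–7.19%), and the WT and R76W intervals then overlapped. These are shares of sorted cells, and the part of the sort in the difference between libraries was not tested.

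**Figure D1:**
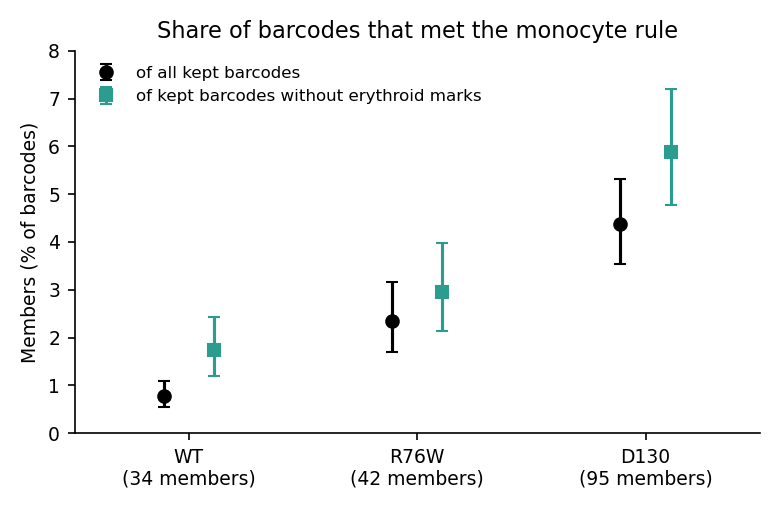
Share of barcodes that met the monocyte rule in each library, in percent, with exact 95% intervals as bars. Circles count all kept barcodes and squares leave out erythroid-marked ones; D130 is highest on both counts, at 4.37% and 5.89%.

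Most of these monocytes were rich in cell cycle RNA. The UMIs of 36 genes of DNA replication and mitosis, among them Mki67 and Top2a, were summed in each cell and scaled to 10000 UMIs. WT members ranged from 14.01 to 265 with a median of 149, R76W members from 0 to 245 with a median of 117, and D130 members from 7.02 to 273 with a median of 123. The values fell into a low and a high group, with no WT cell between 32.9 and 94.4 and no R76W cell between 35.8 and 96.9, while 10 D130 cells lay between 40 and 90. A limit of 50, set after these values were seen, put 23 of 34 WT members (67.7%, 49.5 to 82.6%), 26 of 42 R76W members (61.9%, 45.6 to 76.4%) and 61 of 95 D130 members (64.2%, 53.7 to 73.8%) in the high group. After thinning to 3000 UMIs the shares were 66.7%, 65.0% and 65.6%. The proportion of cycle-high monocytes was thus close in the 3 libraries, within wide intervals. Cycle-high cells were deeper, with median totals of 21035, 26053 and 29426 UMIs against 10336, 11320 and 11406 in cycle-low cells. They held 518307 of 627096, 786906 of 952864 and 2119554 of 2526524 member UMIs. Cycle-high cells thus weighed most in levels summed over all members.

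**Figure D2:**
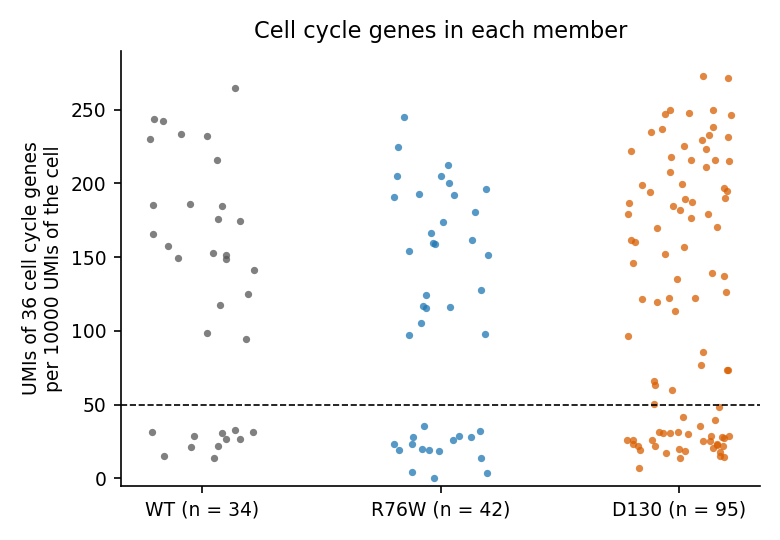
UMIs of 36 cell cycle genes per 10000 UMIs, 1 point for each member, with 34 WT, 42 R76W and 95 D130 cells. The dashed line is the limit of 50; WT and R76W have an empty range around it and D130 has 10 cells between 40 and 90.

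Some genes separated cycle-low from cycle-high monocytes in all 3 libraries. Of 8440 measured genes, 218 (2.58%) had a higher level in cycle-low cells with intervals that did not overlap in all 3 libraries, and 267 (3.16%) had a higher level in cycle-high cells. The 2 groups were cut from the same cells' counts, so these values describe the cut and were not tested. Cycle-low cells had more RNA of mature monocyte genes. Ctss stood at 1213 CPM in cycle-low against 361 in cycle-high WT cells, at 1115 against 318 in R76W and at 1801 against 390 in D130. Cx3cr1, the receptor of patrolling cells, stood at 138 against 21.2, 235 against 33.0 and 204 against 34.0 CPM. Clec4a3, a lectin receptor, stood at 322 against 46.3, 223 against 25.4 and 423 against 51.9 CPM. Apoe, which encodes a lipid carrier protein, stood at 1609 against 36.7, 211 against 21.6 and 1025 against 81.2 CPM. Of the lists, 13 of 24 classical monocyte genes, 13 of 22 genes shared by mononuclear phagocytes and 8 of 27 interferon genes were higher in cycle-low cells of all 3 libraries, and none of these lists had a gene higher in cycle-high cells of all 3.

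Cycle-high cells had more RNA of primary granule genes, which mark granulocyte and monocyte progenitors. Elane, neutrophil elastase, stood at 652 CPM in cycle-high against 9.19 in cycle-low WT cells, at 891 against 6.03 in R76W and at 627 against 2.46 in D130. Ctsg, cathepsin G, stood at 469, 914 and 544 CPM in cycle-high cells, against 0, 12.1 and 14.7 CPM in cycle-low cells. Mpo, myeloperoxidase, stood at 145, 372 and 243 CPM against 0, 0 and 4.91. Elane and Mpo belong to the neutrophil sum that the rule capped, so these levels are those left under the cap. The replication-linked histone gene Hist1h2ap was also higher in cycle-high cells in each library. So were 4 of 19 measured genes of glycolysis and hypoxia, Tpi1, Gapdh, Pgk1 and Pgam1, and 3 of 20 chaperone and unfolded protein genes, Hspa8, Hsp90aa1 and Hsp90ab1. The share of all measured genes higher in cycle-high cells of all 3 libraries was 3.16%.

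Between libraries, genes were compared as log2 ratios of CPM with 5 added to each level, a scale that understates differences of low genes. The comparisons of R76W and of D130 with WT share the 34 WT cells. A gene counted as measured on the UMIs of all members together, most of which came from D130, so genes high in D130 passed that limit more easily. In R76W, 224 of 8440 measured genes (2.65%) were at least 2 times higher than in WT and 161 (1.91%) at least 2 times lower, with a median log2 ratio of 0.02 over all genes. In D130, 274 (3.25%) were at least 2 times higher than in WT and 91 (1.08%) at least 2 times lower, with a median of 0.07. D130 exceeded R76W at least 2-fold in 187 genes (2.22%) and fell short of it 2-fold in 43 (0.509%), with a median of 0.03. The 187 included all 9 measured erythroid genes. The count was 93 without the erythroid-marked members and 99 without the Scrublet doublets. It was 68 without all members marked by erythroid, stromal or platelet genes. These counts were taken over fewer measured genes, and the cause of the drop was not tested. Counting intervals of the compared levels did not overlap, higher and lower, for 203 (2.41%) and 258 (3.06%) genes between R76W and WT, for 382 (4.53%) and 367 (4.35%) between D130 and WT, and for 384 (4.55%) and 264 (3.13%) between D130 and R76W.

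D130 monocytes had much less RNA of inflammatory and immediate early genes than WT monocytes, and R76W monocytes lay between them for many of these genes. The lowest D130 to WT ratios among the genes named by a fixed rule were those of Cxcl2, Tnfaip3, Nfkbia, Atf3, Nr4a1, Ccl3, Nr4a2 and Clec4e. Cxcl2 encodes a neutrophil-attracting chemokine, Nfkbia and Tnfaip3 encode the NF-kB inhibitors IkB-alpha and A20, and Atf3, Nr4a1 and Nr4a2 encode inducible transcription factors. The promoter stretches of Cxcl2 and Nfkbia are shown because both genes are known NF-kB targets, Cxcl2 with the lowest D130 to WT ratio of all named genes and Nfkbia with UMIs in most members. They were cut from the RefSeq promoters of the GRCm38.p6 build, are written 5′ to 3′ along the gene, and have in capitals each match, on either strand, to the kappaB letters bound by NF-kB, GGG and TTTCC with any 2 bases between them.
Cxcl2 at chr5:90903772-90903860 (plus strand): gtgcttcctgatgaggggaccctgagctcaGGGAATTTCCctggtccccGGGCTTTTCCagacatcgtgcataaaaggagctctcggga
Nfkbia at chr12:55492648-55492706 (minus strand): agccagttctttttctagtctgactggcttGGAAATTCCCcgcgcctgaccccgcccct
The 2 Cxcl2 matches lie 97 to 69 bases before the gene start, and the Nfkbia match, on the opposite strand, 29 to 20 bases before it. Several spellings of the motif were looked at before this one was used. These letters occur in 535 of 32851 promoters of the same length (1.63%) and in those of 4 of the 19 measured NF-kB list genes with a promoter sequence, Il6, Nfkbia, Rel and Tnfaip3. The matches describe the sequence and show no binding in these cells.

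Cxcl2 had 251 UMIs in WT members, 137 in R76W and 5 in D130, or 400 (352–453), 144 (121–170) and 1.98 (0.643–4.62) CPM. The UMIs lay in 10 of 34, 14 of 42 and 2 of 95 members, against at most 0.183% of stromal and 0.163% of erythroid barcodes of any library. Neutrophil barcodes, which were shallower, had Cxcl2 in 28.8%, 46.7% and 17.2%, so Cxcl2 was not particular to the monocytes. The median cell had none in any library, and the highest cell had 61.4 per 10000 in WT, 58.5 in R76W and 0.876 in D130. Cxcl2 RNA was thus a property of a minority of cells, with 50% of it in 3 WT and 2 R76W cells, and D130 had 0.00494 times the WT level (0.00159–0.0117). The R76W level was 0.359 times that of WT, but among cycle-high cells alone the log2 ratio was 0.10.

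Nfkbia was spread over most cells. It stood at 518 (463–578) CPM in WT, 257 (226–291) in R76W and 82.3 (71.5–94.3) in D130. The median cell had 3.74 UMIs per 10000 in WT, 1.04 in R76W and 0.786 in D130. The highest cell had 26.3, 34.4 and 4.52. Single cells of the 3 libraries overlapped in range, but no D130 cell reached the level of the highest WT or R76W cells. The D130 level was 0.159 times that of WT (0.133–0.190) and 0.320 times that of R76W (0.265–0.387), and the R76W level was 0.496 times that of WT (0.419–0.587). Tnfaip3 stood at 129 (103–161), 65.1 (49.9–83.4) and 15.4 (10.98–21.1) CPM, with D130 at 0.119 times the WT level (0.0794–0.177). Zfp36, which encodes a protein that speeds the decay of cytokine RNAs, stood at 681, 397 and 267 CPM, with D130 at 0.392 times WT. RNA of these feedback inhibitors was thus highest in WT and lowest in D130.

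Other chemokine and cytokine genes did not all follow that order. Ccl3 stood at 276 CPM in WT, 188 in R76W and 71.2 in D130. Ccl4, its neighbour on chromosome 11 and like it a chemokine, stood at 263, 43.0 and 32.1 CPM, with 50% of the WT UMIs in 2 cells. Ccl2, the ligand of CCR2, was close in WT and R76W at 212 (178–251) and 231 (201–264) CPM and lower in D130 at 85.1 (74.1–97.3). Both transgenic intervals lay below that of WT for Ccl4, and only that of D130 for Ccl2. Tnf stood at 46.2, 35.7 and 9.499 CPM and Osm, oncostatin M, at 147, 109 and 45.5 CPM, with D130 intervals below both other libraries. Il1b took another order, with 124 CPM in WT, 42.0 in R76W and 99.4 in D130. Its WT UMIs lay in 9 cells. Ptgs2, the inducible cyclooxygenase that makes prostaglandin precursors, stood at 65.4 CPM in WT and at 25.2 and 24.1 CPM in the transgenic libraries. Il6 had only 13, 10 and 16 UMIs.

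Receptors that sense microbial products showed 2 patterns. Clec4e, the Mincle receptor for damaged cells and mycobacterial lipid, stood at 175 (144–211) CPM in WT, 40.9 (29.1–56.0) in R76W and 54.2 (45.5–64.1) in D130. It had the lowest R76W to WT ratio of the named genes, at 0.233 times WT (0.158–0.339). Cd14, the co-receptor for bacterial lipopolysaccharide, stood at 201 (167–239), 167 (142–195) and 68.1 (58.3–79.1) CPM, so only D130 lay apart. Cd86, a co-stimulatory ligand for T cells, was lower in both, at 249, 139 and 105 CPM. Over 21 measured pattern recognition and Fc receptor genes the median log2 ratio to WT was -0.27 in R76W and -0.01 in D130.

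**Figure D3:**
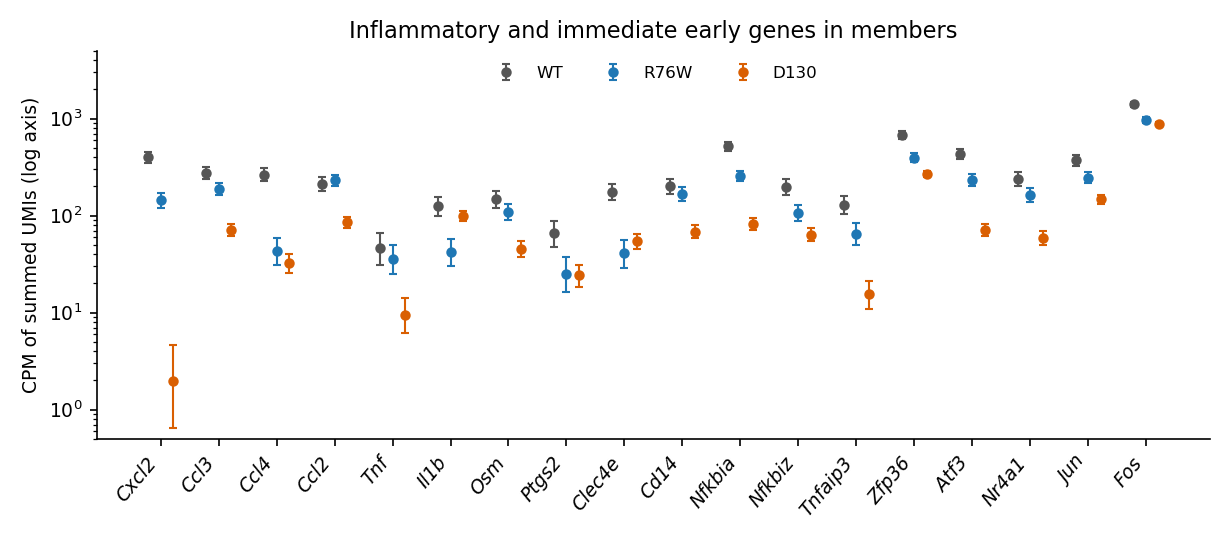
CPM of 18 inflammatory and immediate early genes in the members, log axis, with exact Poisson 95% intervals, for WT, R76W and D130. D130 has the lowest level of 16 of the 18; Il1b and Clec4e are lowest in R76W, and Cxcl2 spans from 400 CPM in WT to 1.98 in D130.

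Of 22 measured genes of inflammatory cytokines and the NF-kB pathway, 10 were at least 2 times lower in D130 than in WT and 1 at least 2 times higher, with a median log2 ratio of -0.89. For 11 of the 22 the D130 interval lay below that of WT, and for Spp1 it lay above. Among all 8440 measured genes, 1.08% were at least 2 times lower in D130 than in WT and 3.25% higher. Intervals of D130 lay below WT for 4.35% and above it for 4.53%. Spp1, osteopontin, is abundant in stromal barcodes (469 to 2095 CPM), and 56 of its 114 D130 UMIs were in 1 cell. In R76W, 2 of the 22 were at least 2 times lower than in WT and none higher, with a median of -0.30. Between D130 and R76W, 5 were at least 2 times lower and 2 higher, with a median of -0.44. All-gene shares were 1.91% lower in R76W than in WT, and 0.509% lower and 2.22% higher in D130 than in R76W.

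Immediate early genes, which are induced within minutes by growth factors, stress and tissue dissociation, were lower in both transgenic libraries. Of 23 measured genes, 12 were at least 2 times lower in D130 than in WT and none higher, with a median log2 ratio of -1.01, and 3 were at least 2 times lower in R76W and none higher, with a median of -0.54. Intervals lay below WT for 16 of 23 in D130 and 14 of 23 in R76W, against 4.35% and 3.06% of all measured genes. The all-gene shares at least 2 times lower were 1.08% in D130 and 1.91% in R76W. Their summed level was 6753 CPM in WT, 4707 in R76W and 3552 in D130. Atf3 stood at 431 (381–485), 233 (203–266) and 70.9 (60.9–82.0) CPM and had a UMI in 28 of 34, 32 of 42 and 46 of 95 members. Nr4a1 stood at 239 (203–281), 163 (138–190) and 59.4 (50.3–69.7) CPM. The AP-1 subunit genes differed less. Fos stood at 1397, 962 and 887 CPM, Jun at 372, 247 and 147 CPM, and Junb at 840, 562 and 412 CPM. Klf2, an immediate early gene of quiescent leukocytes, went the other way between the transgenic libraries, at 126 CPM in R76W and 186 in D130, with WT at 166. Nfkbia and Zfp36 are in both of these lists, so the lists are not independent.

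The 2 groups of cells were also compared separately, since cycle-low cells had more RNA of these genes. In cycle-low cells Nfkbia stood at 1434 CPM in WT, 404 in R76W and 145 in D130; in cycle-high cells at 326, 226 and 70.3 CPM. Tnfaip3 stood at 450, 133 and 22.1 CPM in cycle-low cells and at 61.7, 50.8 and 14.2 CPM in cycle-high cells. Atf3 stood at 1039, 675 and 253 CPM in the former and at 303, 140 and 35.9 CPM in the latter. D130 was thus lowest for these genes in both groups of cells. Clec4e was at 625, 66.3 and 103 CPM in cycle-low cells and at 81.0, 35.6 and 44.8 CPM in cycle-high cells. Ccl3 differed between the groups, with 211, 386 and 187 CPM in cycle-low cells and 289, 146 and 49.1 CPM in cycle-high cells. The D130 to WT median of the immediate early list was -1.07 in cycle-low and -0.62 in cycle-high cells, and that of the inflammatory list -1.11 and -0.40.

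**Figure D4:**
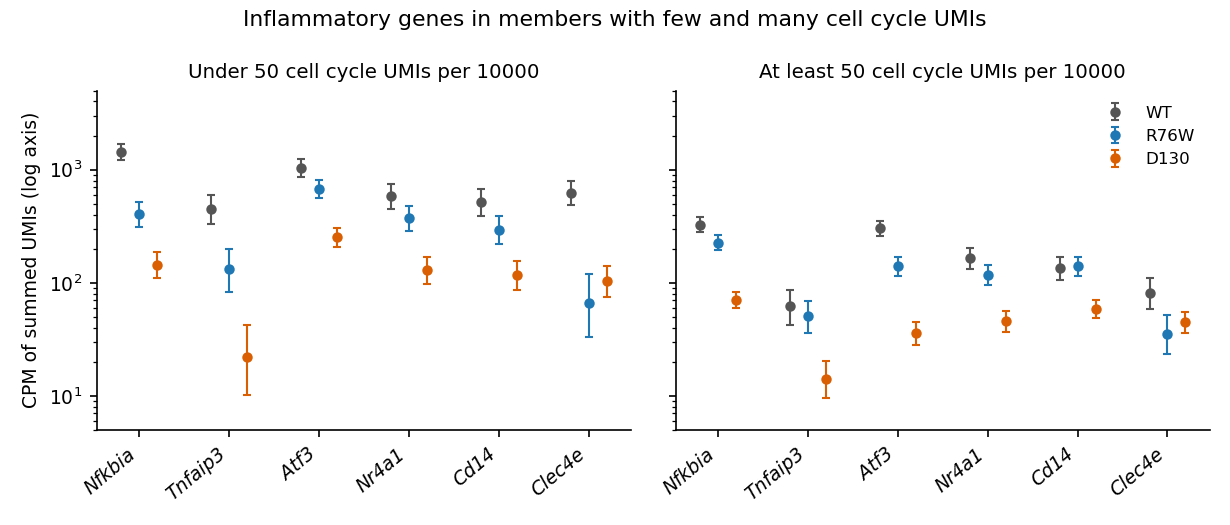
CPM of Nfkbia, Tnfaip3, Atf3, Nr4a1, Cd14 and Clec4e, log axis, in cycle-low members (left; 11 WT, 16 R76W and 34 D130 cells) and cycle-high members (right; 23, 26 and 61 cells), with exact Poisson 95% intervals. Levels are higher on the left, and D130 lies below WT for all 6 genes on both sides.

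The same lists were also measured in the other cells of these libraries. The D130 to WT median of the immediate early list was 0.27 in stromal barcodes, -0.04 in neutrophil barcodes and -0.55 in erythroid barcodes, against -1.01 in monocytes. For R76W and WT it was 0.28, 0.42 and -0.19, against -0.54 in monocytes. Erythroid barcodes thus had the same direction as monocytes, with summed immediate early levels of 767, 527 and 380 CPM in WT, R76W and D130, whereas the stromal medians were above 0. Between D130 and R76W the medians were -0.03 in stromal, -0.75 in neutrophil and -0.34 in erythroid barcodes, beside -0.44 in monocytes. The D130 to WT median of the inflammatory list was 0.31 in stromal, 0.42 in neutrophil and -0.01 in erythroid barcodes, against -0.89 in monocytes. The summed inflammatory level in erythroid barcodes was 718, 617 and 530 CPM. These differences between cell classes were not tested, since each library was 1 sample.

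**Figure D5:**
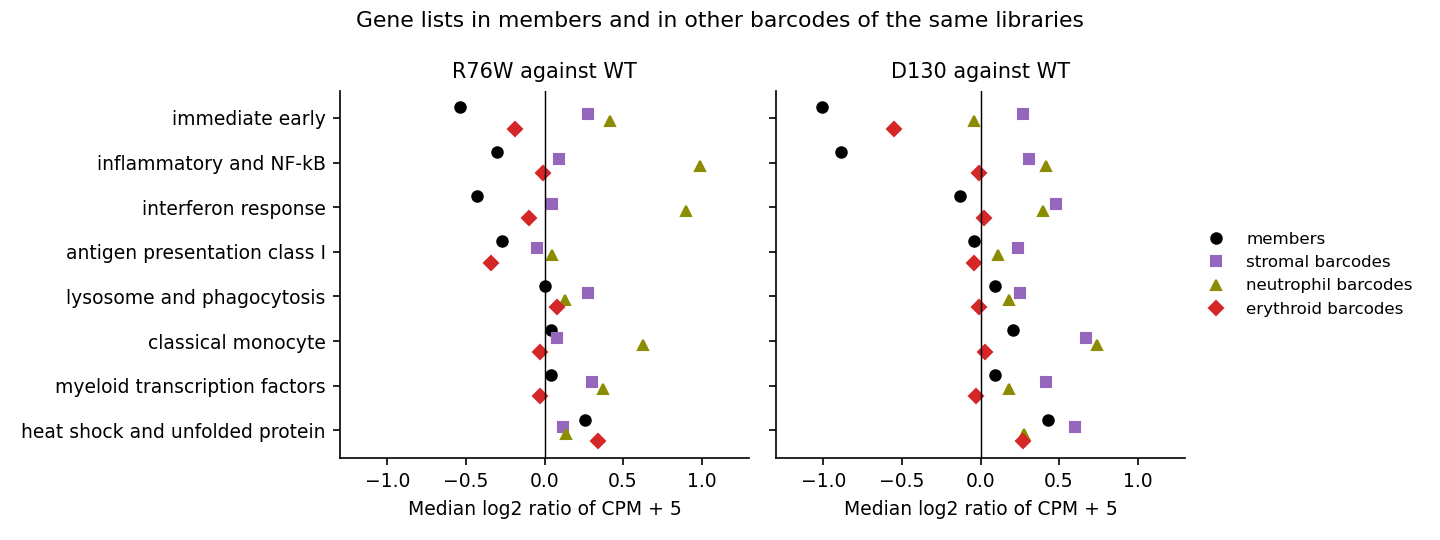
Median log2 ratio of CPM + 5 of 8 gene lists, R76W against WT (left) and D130 against WT (right), in members (circles), stromal (squares), neutrophil (triangles) and erythroid barcodes (diamonds). Immediate early genes have medians of -0.54 and -1.01 in members, 0.28 and 0.27 in stromal barcodes and -0.19 and -0.55 in erythroid barcodes.

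Some interferon response genes were lower in R76W monocytes than in the other libraries. Of 27 measured genes, 6 were at least 2 times lower in R76W than in WT and none higher, with a median log2 ratio of -0.43. R76W intervals lay below WT for 7 of the 27, against 3.06% of all measured genes. D130 intervals lay above R76W for 8 and below it for 1, against 4.55% and 3.13%. D130 had a median of -0.13 against WT, with 3 at least 2 times lower and none higher, and of 0.33 against R76W, with 6 higher and 1 lower. Of all measured genes, 1.91% were at least 2 times lower in R76W than in WT and 1.08% in D130. Against R76W, 2.22% were at least 2 times higher in D130 and 0.509% lower. Irf7, the transcription factor that amplifies type I interferon, stood at 68.6 (49.6–92.4) CPM in WT, 11.5 (5.76–20.7) in R76W and 43.5 (35.8–52.5) in D130. It had a UMI in 41.2%, 19.1% and 45.3% of members, but also in 19.6%, 19.7% and 27.3% of erythroid barcodes. Its single-cell share in R76W was thus no higher than in the erythroid barcodes of that library. Ifitm3, which restricts virus entry, was abundant and less different, at 2476 (2355–2603), 1660 (1579–1744) and 2165 (2108–2224) CPM. Phf11b stood at 38.3, 8.40 and 22.2 CPM.

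Isg15, a ubiquitin-like protein made on interferon exposure, stood at 82.9 CPM in WT, 22.04 in R76W and 32.5 in D130. Of its 52 WT UMIs, 33 were in 1 cell. Its promoter is shown for its row of matches to the letters of the interferon-stimulated response element, GAAA, any 2 bases and GAAA again, in capitals and again from the GRCm38.p6 RefSeq promoter.
Isg15 at chr4:156200845-156200926 (minus strand): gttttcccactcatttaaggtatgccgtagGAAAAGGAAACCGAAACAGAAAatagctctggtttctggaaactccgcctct
The 3 matches overlap one another, lie on the gene's strand and span 78 to 57 bases before its start. These letters were found on either strand in 1131 of 32851 promoters (3.44%) and in 13 of 21 promoters of measured interferon list genes, among them Ifitm3, Phf11b, Oas1a, Slfn5 and Cxcl10. Genes with the letters did not move alike. Cxcl10, a T cell chemokine, stood at 68.6, 26.2 and 3.17 CPM and so was lowest in D130, whereas Slfn5 stood at 57.4, 52.5 and 91.8 CPM and Oas1a, an antiviral nucleotide synthetase, at 20.7, 17.8 and 42.4 CPM, highest in D130. Cxcl10 was also high in D130 stromal barcodes, at 160 CPM against 57.8 in WT and 19.0 in R76W.

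Genes of classical monocytes had medians close to those of all genes, with single genes higher or lower. Chil3, a chitinase-like protein of young Ly6C-high monocytes, had the second highest R76W to WT ratio of the named genes. It stood at 451 (400–507) CPM in WT, 1306 (1234–1380) in R76W and 936 (898–974) in D130. It had a UMI in 41.2%, 57.1% and 73.7% of members, against at most 2.76% of erythroid barcodes, and in 31.5%, 20% and 41.8% of the shallower neutrophil barcodes. The median cell had 0, 0.627 and 4.35 UMIs per 10000 and the highest 49.4, 137 and 124. So more D130 cells had Chil3, while its R76W level came from fewer cells, with 50% of the UMIs in 5 of 42. Vcan, the proteoglycan versican, stood at 43.1 (28.4–62.6), 79.8 (62.8–99.8) and 137 (123–152) CPM, with 50% of the D130 UMIs in 5 cells. With each cell weighted equally, its D130 to WT log2 ratio was 0.15 instead of 1.56. Thbs1, thrombospondin 1, stood at 43.1, 95.5 and 110 CPM. Over the 24 measured classical monocyte genes the median log2 ratio to WT was 0.04 in R76W and 0.21 in D130. In R76W 2 of the 24 were at least 2 times higher and none lower, and in D130 3 were higher and 1 lower. The shares of all measured genes were 2.65% and 3.25% higher, and 1.91% and 1.08% lower. Intervals lay above WT for 5 genes in R76W and 7 in D130, against 2.41% and 4.53% of all measured genes. They lay below it for Ccr2 in R76W, and in D130 for Cd14 and for Hp, haptoglobin, at 746 (680–817) CPM in WT and 629 (599–661) in D130. Ly6c2, Ccr2, F13a1 and Ms4a6c of this list also belong to the rule.

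Several progenitor genes were higher in R76W than in WT, some of them genes that the rule capped. Of 10 measured genes of early myeloid progenitors, 2 were at least 2 times higher in R76W than in WT and none lower, with a median log2 ratio of 0.83. Intervals lay above WT for 6 of the 10, and Mpo, Elane and Prtn3 among them belong to the sum that the rule capped. Of all measured genes, 2.41% had R76W intervals above WT and 2.65% were at least 2 times higher. The median of D130 against WT was 0.60 and that of D130 against R76W -0.36, with none of the 10 past 2-fold. Ctsg stood at 388 (340–439) CPM in WT, 757 (702–814) in R76W and 458 (432–486) in D130. Ms4a3, a marker of granulocyte and monocyte progenitors, stood at 30.3 (18.2–47.3), 78.7 (61.9–98.7) and 43.1 (35.4–52.0) CPM. Irf8, the factor that directs progenitors to monocytes, stood at 265, 364 and 275 CPM. The capped genes Mpo, Elane and Prtn3 stood at 120, 308 and 204 CPM, 541, 737 and 526 CPM, and 1343, 1682 and 1029 CPM. The neutrophil list, whose genes apart between R76W and WT were mostly capped ones, summed to 2744, 3842 and 2314 CPM, highest in R76W and lowest in D130. In thinned cells the progenitor median was 0.15 in R76W and -0.27 in D130, over fewer measured genes. With the neutrophil limit at 50 per 10000, 31 of 34 WT, 32 of 42 R76W and 87 of 95 D130 members remained. R76W thus had the largest share of members close under the cap.

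RNA for antigen presentation through class II came mostly from a few D130 cells. Cd74, the invariant chain, stood at 102, 32.5 and 401 CPM, with UMIs in 26.5%, 23.8% and 29.5% of members, against at most 0.976% of erythroid barcodes. Its highest cell had 58.4, 12.1 and 240 UMIs per 10000, and 3 D130 cells held 50% of the D130 UMIs. H2-Ab1, a class II beta chain, had 2, 2 and 283 UMIs in 2, 2 and 13 members. At least 2 of 4 class II genes were found in 3 of 34, 3 of 42 and 8 of 95 members, which is 8.82% (1.86–23.7%), 7.14% (1.498–19.5%) and 8.42% (3.71–15.9%), so such cells were no more frequent in D130 within these intervals. Class II RNA in D130 was thus concentrated in a few cells. The 7 measured genes had a D130 to WT median of 0.53, with 2.86 among cycle-low cells (34 in D130, 11 in WT) and -0.27 among cycle-high cells. H2-Ab1 counted as measured only through its D130 UMIs, so these medians were drawn in part from genes that D130 itself admitted.

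Some differences were shared with other cells of a library. Cdk8, Camk1d and Cmss1 were among the highest R76W to WT ratios. Camk1d, a calcium-dependent kinase, stood at 380, 834 and 565 CPM in monocytes and at 644, 1673 and 986 CPM in stromal barcodes. Cmss1 stood at 569, 1228 and 785 CPM in monocytes and at 1444, 2525 and 2105 CPM in stromal barcodes, and Cdk8 at 116, 337 and 215 CPM against 439, 1044 and 708 CPM. All 3 genes were also highest in R76W and lowest in WT in neutrophil and erythroid barcodes. Gm42418, a gene left out of naming for its symbol, had the same order in monocytes, at 8943, 16127 and 10326 CPM. The 13 mitochondrially encoded genes summed to 18036, 26245 and 28358 CPM in monocytes, with medians of 0.44 in R76W and 0.58 in D130 against WT, beside 0.60 and 0.62 in erythroid and 0.07 and 0.23 in stromal and 0.02 and 0.18 in neutrophil barcodes. The mitochondrial difference was thus shared with erythroid barcodes and was small in stromal and neutrophil ones.

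Replication-dependent histone genes were among the highest named genes of both comparisons with WT, where Hist1h2ab ranked first in R76W and came after Vcan in D130. Hist1h2ab stood at 71.8 (52.3–96.0), 290 (257–326) and 215 (197–233) CPM, and Hist1h4d at 287, 665 and 628 CPM. Their UMIs came almost only from cycle-high cells, in which Hist1h4d stood at 340, 799 and 738 CPM, against 36.8, 30.1 and 54.1 CPM in cycle-low cells. The level of the whole cell cycle list was close, at 15559, 14127 and 15085 CPM. Gria3, a glutamate receptor subunit gene, stood at 102 (78.6–130), 240 (210–274) and 254 (235–275) CPM and was also mostly in cycle-high cells. Of the cell cycle genes, Aurka, a mitotic kinase, was lower in R76W (52.5 CPM) than in WT (102 CPM), with D130 at 87.1 CPM. Its R76W to WT log2 ratio was -0.90, and 0.22 in thinned cells. Kpna2, Kif23 and Cdc20, genes of mitosis and nuclear import, were higher in D130 than in R76W, at 149 against 72.4, 129 against 71.4 and 110 against 60.9 CPM.

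Genes of the pathways that the study's title names were sparse in monocytes. Among the receptors for prostaglandin E2, Ptger4 was the most abundant, at 28.7 (17.0–45.4), 28.3 (18.7–41.2) and 14.6 (10.3–20.2) CPM, with 18, 27 and 37 UMIs. Ptger2 had 2, 8 and 23 UMIs and Ptger3 1, 1 and 2. Over 19 measured genes of prostaglandin E2 and cAMP signalling the median log2 ratio to WT was 0.03 in R76W and -0.11 in D130. Pde4b, a cAMP phosphodiesterase that is itself induced by cAMP, stood at 188 (156–225), 168 (143–196) and 72.0 (62.0–83.3) CPM, a D130 level of 0.383 times WT (0.302–0.487). It was one of 4 of the 19 genes whose D130 interval lay below that of WT, with Ptgs2, Nr4a1 and Nr4a2. The share of all measured genes with such an interval was 4.35%. Gja1, the gene of Cx43, had 0, 1 and 54 UMIs in the members, 45 of the 54 in 1 cell, against 598 to 1183 CPM in stromal barcodes. None of the 4 measured connexin and pannexin genes had intervals apart in any comparison, and with so few UMIs only large differences could have shown.

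Genes of osteoclast formation, which starts from monocytes, showed few differences. Of 16 measured genes of the colony stimulating factor 1 and RANK axis, 1 was at least 2 times higher and 2 were lower in both R76W and D130 than in WT, with medians of -0.17 and -0.07. Shares of all measured genes were 2.65% and 3.25% higher, and 1.91% and 1.08% lower. Trem2, a receptor of the DAP12 pathway, stood at 87.7, 86.1 and 53.4 CPM, and Csf2ra, a receptor subunit for granulocyte and monocyte growth factor, at 260, 246 and 177 CPM. Acp5, the osteoclast acid phosphatase, had 8, 1 and 35 UMIs.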

How the data were processed

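The authors deposited, per the labels' protocols, UMI counts from 10x 3′ v3 libraries of sorted marrow cells, 1 matrix for each genotype. The counts came from Cell Ranger 7.0.1, per the file headers. Seurat and the mm10 build are named in the submitters' processing notes. The matrices held 7352, 3317 and 4245 barcodes (81837778, 29558251 and 46897983 UMIs) in WT, R76W and D130. From these counts, members were found by the rule in the report and their UMIs were summed for each library, since cells are not replicates. With 1 library for each genotype, no test, fold change error across mice or paired fit was possible, and all intervals are 95% counting intervals.

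Genes with at least 30 UMIs in at least 10 members were measured (8440). Log2 ratios used CPM with a pseudocount of 5. Named genes were the 8 highest and 8 lowest ratios of each comparison. They had at least 100 CPM in 1 library, at most 25% of the UMIs in 1 cell and intervals that did not overlap. Genes of the rule, ribosomal, mitochondrial, hemoglobin, immunoglobulin and sex-linked genes were left out. So were genes without a common symbol (Gm and digits, or ending in Rik) and genes at least 5 times higher in other cell types. Listed genes named were those with intervals apart or with most UMIs. The members and the 40 gene lists (775 symbols, 5 not matched) were chosen with earlier results of these data known, and some singled-out cells and genes were named after their values were seen. Thinning drew 3000 UMIs from each cell. Doublets were called with Scrublet in scanpy 1.11.5; in WT its automatic limit marked 0 barcodes, so the 153 highest scores were used. Other alternatives covered filters, pseudocounts, scaling (edgeR 4.0.16, TMM factors only) and left-out cells. Promoters and gene positions were matched by symbol and ID (32235 of 32285 IDs). Python 3.11.15, numpy 2.4.6, scipy 1.17.1 and pandas 2.3.3 were used, and the calculations were tested on simulated data. Some genes that the naming rule or the lists hold are not reported here.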

Additional observations from a re-analysis of the deposited data

Results flagged for a closer look

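The following results went opposite ways in monocytes and in stromal barcodes of the same libraries, and none of these differences was tested. The median log2 ratio of immediate early genes for R76W against WT was -0.54 in monocytes and 0.28 in stromal barcodes. For D130 against WT it was -1.01 in monocytes and 0.27 in stromal barcodes. The inflammatory and NF-kB list had a D130 to WT median of -0.89 in monocytes and 0.31 in stromal barcodes. Ccl2 had a D130 to WT log2 ratio of -1.27 in monocytes (85.1 and 212 CPM) and 3.07 in stromal barcodes (402 and 43.4 CPM). Against R76W the ratio of Ccl2 in D130 was -1.39 in monocytes (85.1 and 231 CPM) and 2.95 in stromal barcodes (402 and 47.8 CPM). Cxcl10 had a D130 to WT log2 ratio of -3.17 in monocytes (3.17 and 68.6 CPM) and 1.39 in stromal barcodes (160 and 57.8 CPM). Against R76W it was -1.94 in monocytes (3.17 and 26.2 CPM) and 2.78 in stromal barcodes (160 and 19.0 CPM). Isg15 had a D130 to WT log2 ratio of -1.23 in monocytes (32.5 and 82.9 CPM) and 0.75 in stromal barcodes (146 and 84.7 CPM). Most of its WT monocyte UMIs were in a single cell, so the monocyte ratio rests largely on that cell. Nfkbiz, an inducible partner of NF-kB, had a D130 to WT log2 ratio of -1.56 in monocytes (63.7 and 198 CPM) and 0.87 in stromal barcodes (127 and 67.1 CPM).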

How the results depend on the processing

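No paired analysis was possible because there was 1 library per genotype, and no replicate could be left out. Numbers of genes past the 2-fold limit, higher and lower, are given in the order R76W against WT, D130 against WT, D130 against R76W. With at least 100 UMIs per gene they were 71 and 59, 99 and 45, and 74 and 19, and with no filter on low counts 376 and 268, 444 and 138, and 341 and 81, over fewer or more genes. With a pseudocount of 1 CPM they were 449 and 326, 537 and 146, and 372 and 103, and with 20 CPM 15 and 42, 46 and 37, and 59 and 15. With each cell weighted equally, R76W against WT had 398 higher and 259 lower, and D130 had 194 lower than WT and 158 lower than R76W. In thinned cells D130 had 147 genes higher than WT and 111 higher than R76W, and log2 ratios turned to 0.22 for Aurka (R76W against WT) and -0.15 for Hist1h4h and -0.27 for the progenitor median (D130 against WT). With neutrophil genes under 50 per 10000, 78 genes were lower in D130 than in R76W. Genes higher in D130 than in R76W numbered 99 without Scrublet doublets and 93 without erythroid-marked members. The member share without erythroid barcodes was 1.73% in WT and 5.89% in D130. The planned limit of 20 cell cycle UMIs per 10000 left only 2 WT, 7 R76W and 9 D130 cells below it and 841 measured genes. In these cells 65 genes were higher in D130 than in R76W, 159 higher in D130 than in WT and 95 lower in R76W than in WT. Log2 ratios there turned, for D130 against WT, to 0.73 for Atf3, 1.21 for Nr4a2, -0.75 for Hist1h4d, -1.88 for Hist1h4h, 0.46 for the immediate early and 0.91 for the inflammatory median. For R76W against WT they turned to -2.84 for Chil3, 6.25 for Cxcl2, -1.89 for Hist1h4d, -1.05 for Hist1h4h and 0.50 for the immediate early median, and for D130 against R76W to 0.56 for Ccl2 and -1.56 for Kpna2. The other alternatives were chosen after seeing the data. In cycle-high cells only, over the genes measured in those cells, Cxcl2 turned to 0.10 (R76W against WT) and the class II median to -0.34 (D130 against WT). In cycle-low cells only, D130 had 122 genes lower than R76W and 178 lower than WT. There Hist1h4d turned to -0.25, Hist1h4h to -0.50 and the class II median to 0.02 (R76W against WT), Kpna2 to -0.89 and the glucocorticoid median to 0.17 (D130 against R76W), and the heat shock median to -0.10 (D130 against WT). Without members marked by genes of other cells, 68 genes were higher in D130 than in R76W, and without the highest cell of each gene the erythroid median of D130 against WT was 0.14. Beyond the fewer cells or genes that some alternatives leave, the cause was not tested. Of 1152 values of named genes under alternatives, 1016 stayed close, 120 moved and 16 turned, and of 553 list medians 486, 58 and 9. With 34 WT cells, 1 UMI is worth more than 1 CPM, so genes of few UMIs have wide intervals.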

Other observations

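Groups of lysosome, transcription factor, chaperone, cytoskeleton and oxidative burst genes had median log2 ratios to WT between -0.22 and 0.43. Lipid and cholesterol genes had medians of -0.02 in R76W and -0.38 in D130 over 15 measured genes. Iron and heme genes had medians of -0.26 and -0.12 over 11. Lysosome and phagocytosis genes had medians of 0.00 in R76W and 0.09 in D130 against WT over 25 measured genes. The myeloid transcription factors had medians of 0.04 and 0.09 over 25 genes, with Cebpb, a factor of inflammatory and emergency myeloid gene expression, at 1569 (1473–1670), 1169 (1101–1240) and 973 (934–1012) CPM in WT, R76W and D130. Chaperone and unfolded protein genes had medians of 0.26 and 0.43 over 20 genes, with intervals above WT for 4 in R76W and 9 in D130. Among them were Hspa8 at 1347, 1799 and 1851 CPM and Calr, calreticulin, at 152, 266 and 261 CPM. Over all 8440 measured genes, intervals lay below WT for 3.06% in R76W and 4.35% in D130, and above it for 2.41% and 4.53%. Over 23 genes of S100 proteins and the cytoskeleton, 9 in R76W and 11 in D130 had intervals below WT and none above, with medians of -0.13 and -0.14. S100a6 was one of them, at 2893, 2364 and 2342 CPM. Over 15 oxidative burst genes with medians of -0.18 and -0.22, 5 in R76W and 7 in D130 had intervals below WT, among them Cyba, a subunit of the phagocyte oxidase, at 1853, 1355 and 1384 CPM, while Cybb, its partner, stood at 655, 641 and 602 CPM. Fth1, ferritin heavy chain, stood at 3248, 1960 and 2189 CPM.

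Over 14 measured genes of chemokines and their receptors, intervals lay above WT for 2 genes in R76W and 5 in D130, and below it for 5 in each. The shares over all measured genes were 2.41% and 4.53% above, and 3.06% and 4.35% below. Those below were Ccl3, Ccl4, Ccl6, Cxcl2 and Ccr2 in R76W and Ccl2, Ccl3, Ccl4, Cxcl2 and Ccrl2 in D130. Ccr1 stood at 25.5 (14.6–41.4) CPM in WT, 39.9 (28.2–54.7) in R76W and 61.4 (52.1–71.8) in D130. Ccl9, a ligand of CCR1, stood at 128, 131 and 188 CPM. Cxcr4, the marrow retention receptor, stood at 84.5 (63.3–111), 153 (129–180) and 129 (115–144) CPM. Ccl6 stood at 263, 163 and 257 CPM, and Ccrl2, an atypical chemokine receptor, at 51.03, 29.4 and 9.499 CPM.

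The log2 ratio of D130 to WT also changed with gene length. Over 5 groups of 1688 measured genes each, from a median length of 4.67 kb to 115 kb, the median ratio ran from -0.07 to 0.23 for D130 against WT, from -0.05 to 0.08 for R76W against WT and from -0.02 to 0.15 for D130 against R76W.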
